A study of Homo sapiens with 9 samples.

Results

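CD44 and the genes that make and degrade hyaluronan were followed in stable lines of HEK293, an established line from human embryonic kidney. The lines expressed MEK1 with an HA tag, either as the wild type (WT) or with the F53S or K57N substitution. The 9 genes were CD44, HMMR, HAS1, HAS2, HAS3, HYAL1, HYAL2, HYAL3 and CEMIP, which the array's annotation still lists as KIAA1199. Every probe that was not a control and carried 1 of these names was taken, which gave 15 of the 50598 probes on the array and 9 of its 38780 gene names. MEK1 is the kinase that activates ERK, and in the study F53S stood for substitutions found in RASopathies and K57N for those found in cancer. RNA was taken from unstimulated cells in 3 experiments per line and hybridized to 9 one-color arrays. All 3 lines carried an MEK1 transgene and its HA tag, so the WT line is the control and no line without a transgene was analyzed here. Each form of MEK1 was represented by 1 stable line, and whether a line was a clone or a pool is not given in the sources used here, so the spread between replicates is that between experiments on 1 line. The source field of WT replicates 2 and 3 gives another cell line number, whereas their titles and cell line fields read HEK293.

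Hyaluronan is a long sugar polymer of the extracellular matrix. Its synthases (HAS) sit in the plasma membrane and build it from UDP-glucuronic acid and UDP-N-acetylglucosamine, while hyaluronidases (HYAL) and CEMIP take part in its breakdown. CD44 is the main cell surface receptor for hyaluronan, and it is made in many spliced forms. HMMR, also called RHAMM, binds hyaluronan at the cell surface and is a spindle protein inside dividing cells.

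CD44 and CEMIP were chosen by the study from these same arrays as genes raised in K57N cells, and CD44 as one raised there and not in F53S cells. The values that chose them were the signals of all 3 lines on the 9 arrays, so their values in all 3 comparisons are a description, with an SE and no p-value. Where the text says that one of their probes was called, it gives the outcome of the call rule as part of that description and not as evidence. The other 7 genes were added for their place in the pathway, with earlier results of these data known. Testing was limited to probes that the scanner software called well above background on each of the 3 arrays of some line. This left 9 of the 15 probes, from 6 of the 9 genes (CD44, HMMR, HAS3, HYAL2, HYAL3 and CEMIP). Of these, 8 were well above background on all 9 arrays, whereas the CEMIP probe passed through the K57N arrays alone. No spot of the 15 probes was saturated.

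The upstream sequences of CD44 and CEMIP are shown here because they are the 2 genes that the study chose from these arrays. They are the 250 bases before the annotated start in RefSeq (GRCh38.p14), at chr11:35138921-35139170 and chr15:80779120-80779369, both on the plus strand. Capitals mark the matches to a GC box (GGGCGG) and to an EGR motif (GCGNGGGCG) on either strand.
CD44 promoter: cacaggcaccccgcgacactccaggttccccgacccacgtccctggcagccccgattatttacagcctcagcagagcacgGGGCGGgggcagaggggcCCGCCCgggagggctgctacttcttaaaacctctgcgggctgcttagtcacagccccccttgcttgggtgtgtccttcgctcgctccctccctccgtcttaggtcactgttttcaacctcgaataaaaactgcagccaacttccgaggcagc
CEMIP promoter: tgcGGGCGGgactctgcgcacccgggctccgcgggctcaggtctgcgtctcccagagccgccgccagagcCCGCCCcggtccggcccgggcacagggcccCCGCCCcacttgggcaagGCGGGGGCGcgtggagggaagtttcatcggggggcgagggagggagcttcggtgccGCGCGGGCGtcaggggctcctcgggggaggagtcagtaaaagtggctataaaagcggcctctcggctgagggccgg

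The CD44 sequence held 2 GC boxes, whose first bases lay 170 and 152 bases before the start, and no EGR motif. The CEMIP sequence held 3 GC boxes, 247, 180 and 150 bases before the start, and 2 EGR motifs, 132 and 76 bases before it. No GC box overlapped an EGR motif in either sequence. A GC box was present in 42.6% of the 35116 RefSeq promoters searched over the same length, and an EGR motif in 8.41%. The median GC content of these promoters was 58.0%, against 62.4% for CD44 and 74.4% for CEMIP. Over 9 promoters of 8 of the 9 genes, 8 held a GC box and 2 an EGR motif, in HAS1 and CEMIP. In HAS1 the EGR match overlapped the GC box. The AP-1 motif TGANTCA, found in 6.57% of all promoters, and the ETS motif CCGGAA, found in 14.5%, were in none of the 9. The CRE motif TGACGTCA, found in 1.65%, was in that of HAS1. These letters are a description of the sequence and were not tested for binding.

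The arrays lay on 2 slides, with replicate 1 of each line on slide 1 and replicates 2 and 3 on slide 2. The 75th percentile of the signal was 245 to 376.2 on slide 1 and 695 to 821 on slide 2, and between 23714 and 29324 probes were well above background per array. Values are given as log2 of the signal relative to the 75th percentile of the array, so that 0 is that percentile, and they are not comparable between probes. MAP2K1, the gene of MEK1, was read by 1 probe, and whether this probe also reads the introduced transcript was not determined. It was at 2.37 ± 0.04 in WT cells, 2.45 ± 0.06 in F53S cells and 2.85 ± 0.06 in K57N cells (SD, n = 3) and was not called in any comparison. Of 8 markers of HEK293 cells, 5 were well above background on all 9 arrays, as were 6 of 11 markers of other cell types. The summed level of the 8 HEK293 markers, in multiples of the 75th percentile of the array, was 239 to 301 in WT, 247 to 380 in F53S and 321 to 388 in K57N arrays. K57N arrays lay above WT arrays without overlap for this sum, as for 10.7% of all tested probes. The highest of the 8 were KRT18, with log2 means of 7.09 in WT and 7.80 in K57N cells, and VIM, with 6.50 and 6.47. The summed level of the 11 markers of other cells was 2.63 to 4.75 in WT, 2.31 to 4.43 in F53S and 2.30 to 2.75 in K57N arrays. COL1A2, DCN and ALB were at background on every array. The largest gaps between WT and K57N means were those of PECAM1 (-6.76 and -4.16, well above background on 2 of 9 arrays), COL1A1 (-0.18 and -1.38), CD3E (-3.39 and -4.54) and CD14 (-2.66 and -1.77). Their part in the results was not tested. As a description of the lines, 10 of 10 transcripts used as readouts of ERK activity were called higher for K57N against WT cells, where 1.52% of all tested genes did, led by DUSP6, an ERK phosphatase (log2 difference 6.32), and the transcription factor EGR1 (5.29). In K57N against F53S cells 6 of the 10 were called, and 7 with a slide term (SPRY4 added), where 0.96% of all tested genes were, led by EGR1 (3.83) and DUSP6 (3.43), and in F53S against WT cells none did, with 10 of 10 differences above 0 and a median of 1.34. The list is not independent of these arrays, since the study named PHLDA1, EGR1 and FOSL1 from them. SPRY4, ETV4, ETV5 and PHLDA1, 4 of the 10, were well above background on 2 of the 3 WT arrays and entered the test through the lines where they were high, so nothing is read from these counts.

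A probe was called when its adjusted p-value in the limma fit over all 25400 tested probes was below 0.05 and the difference was more than 2-fold. In K57N against WT cells, 2 of the 9 tested probes were called higher, 1 of CD44 and 1 of CEMIP, where 1.44% of all tested probes were. None was called lower, where 0.654% of all tested probes were. In K57N against F53S cells the same 2 probes were called higher and none lower, where 0.894% and 0.217% of all tested probes were. In F53S against WT cells none of the 9 probes was called, where 0% of all tested probes were called in either direction. Without adjustment, 47 of all tested probes were higher and 9 lower in that comparison at p below 0.05 and more than 2-fold, and no probe of the 9 genes was among them. With a slide term the shares over all tested probes were larger, at 2.49% higher and 1.78% lower in K57N against WT cells and 1.81% and 0.988% in K57N against F53S cells, and the counts for the 9 probes were the same. Because CD44 and CEMIP were chosen from the signals of these 3 lines, and the CEMIP probe passed the filter through K57N cells alone, nothing is read from the counts of called probes in either comparison with K57N cells.

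**Figure D1:**
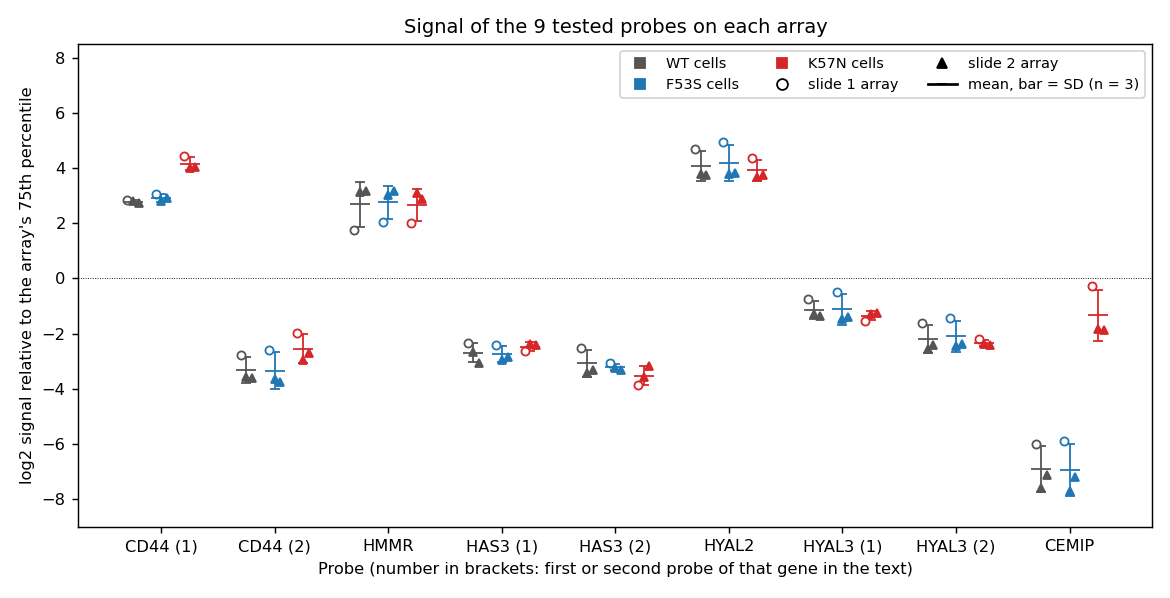
The log2 signal relative to the 75th percentile of the array is plotted for the 9 tested probes, with 1 symbol per array (open circles, slide 1, filled triangles, slide 2) and the mean ± SD of 3 arrays per line. The K57N arrays stand above both other lines for the first CD44 probe and for CEMIP. They stand above the WT arrays in 10.7% of all tested probes and above the F53S arrays in 8.55%. Heights are comparable within a probe but not between probes.

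CD44 was read by 2 probes, which were kept apart. The first probe (A_33_P3294509, named NM_000610, at chr11:35253812-35253871 of hg19 on the plus strand) gave log2 signals of 2.84, 2.80 and 2.73 in WT, 3.05, 2.80 and 2.90 in F53S and 4.44, 4.01 and 4.04 in K57N replicates 1 to 3. All 3 K57N arrays lay above all 6 others, and WT and F53S arrays overlapped. Over all tested probes, the K57N arrays lay above the WT arrays in 10.7% and above the F53S arrays in 8.55%. The WT mean was 2.79 ± 0.05, the F53S mean 2.92 ± 0.13 and the K57N mean 4.16 ± 0.24 (SD, n = 3). In RNA from whole cultures, a change in the share of cells that express a gene and a change in its level per cell cannot be told apart. K57N cells were 2.58-fold above WT cells, with a log2 difference of 1.37 (SE 0.17), and 2.37-fold above F53S cells, with a log2 difference of 1.24 (SE 0.17). F53S minus WT was 0.12 (SE 0.17). Within slides, the K57N to WT difference was 1.60 on slide 1 and 1.25 on slide 2. The call against F53S cells was lost without F53S replicate 2 or 3 and without K57N replicate 2 or 3, while the difference stayed between 1.11 and 1.32 on leaving out any 1 array.

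The second CD44 probe (A_21_P0000152, named NM_001202557 and described as transcript variant 8, at chr11:35244791-35244850 of hg19) lies upstream of the first. It gave -2.78, -3.57 and -3.61 in WT, -2.58, -3.66 and -3.77 in F53S and -1.98, -2.95 and -2.70 in K57N replicates 1 to 3. K57N replicate 1 was the highest of the slide 1 arrays and K57N replicates 2 and 3 the highest of the slide 2 arrays, whereas over both slides the lines overlapped. K57N cells were 1.71-fold above WT cells, with a log2 difference of 0.78 (SE 0.40), and this probe was not called. The difference was 0.81 on slide 1 and 0.76 on slide 2. A fit with a slide term left it at 0.78 with an SE of 0.11, still below 2-fold. It was 0.35 with normexp background correction, 0.49 without K57N replicate 1 and 1.04 without WT replicate 1. Against F53S cells K57N cells were 0.80 higher (SE 0.40), with 0.60 on slide 1 and 0.89 on slide 2, and by 0.37 with normexp, 0.51 without K57N replicate 1 and 1.17 without F53S replicate 1. Both CD44 probes thus had the higher signal in K57N cells on each slide, and the difference between the 2 probes was not tested. LOC100507144, a non-coding gene beside CD44, was at background at both of its 2 probes on each of the 9 arrays.

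CEMIP binds hyaluronan and is needed for its breakdown in some cell types. Its downstream probe (A_23_P324754, at chr15:81243634-81243693 of hg19 on the plus strand) had processed signals of 4.49, 4.18 and 4.95 in WT and 4.16, 3.74 and 4.97 in F53S replicates 1 to 3, and none of these 6 arrays was called well above background. In K57N cells the signals were 312, 229 and 218, and all 3 arrays were well above background. On the log2 scale K57N cells were at -0.27, -1.84 and -1.87, with a mean of -1.33 ± 0.92 (SD, n = 3). WT and F53S cells have no measured level here. With the lowest signal called well above background on each array set in their place, K57N cells were 10.8-fold above WT and 10.9-fold above F53S cells. This is not a strict lower limit, since a probe can exceed that signal uncalled. A HAS1 probe did so at 24.8 on WT replicate 3, where the lowest called signal was 22.9. The measured CEMIP log2 difference of 5.58 between K57N and WT cells rests on signals below background. It was 2.18 with normexp background correction, under which the probe was no longer called. The probe was higher in K57N cells on both slides, by a measured 5.72 on slide 1 and 5.51 on slide 2.

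**Figure D2:**
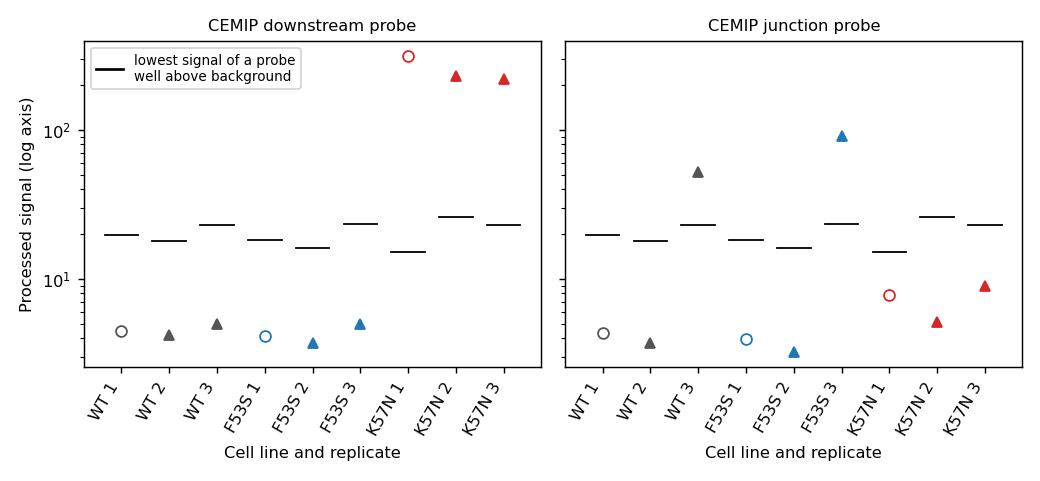
The processed signal (log axis) of both CEMIP probes is plotted for each array, and black lines mark the lowest signal of any probe called well above background on that array. The downstream probe lies between 218 and 312 in K57N cells and below 5 in the other lines, whereas the junction probe is above the line on WT replicate 3 and F53S replicate 3 alone.

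The other CEMIP probe behaved differently. Its 60 bases match chr15:81221504-81224247 of hg19 with a gap of 2684 bases, so it reads across a splice junction. It is printed because its values part from those of the downstream probe, and no capitals are marked.
CEMIP junction probe A_24_P84396: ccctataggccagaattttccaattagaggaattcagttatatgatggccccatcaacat

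The junction probe gave signals of 7.84, 5.17 and 8.91 in K57N replicates 1 to 3, none of them called well above background. It was well above background on WT replicate 3 (52.1) and F53S replicate 3 (91.3), and the other WT and F53S arrays were between 3.22 and 4.31. It therefore did not enter the test. The rise of the downstream probe in K57N cells was not seen with the junction probe, so the array shows it at 1 of the 2 CEMIP probes. A transcript read from the opposite strand upstream of both probes (ENST00000560873) was well above background on 6 of 9 arrays, the slide 2 arrays of every line, and its part in the CEMIP values was not tested.

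No probe of a hyaluronan synthase was called in any comparison. HAS1, with 3 probes on chromosome 19 (A_33_P3295203, A_33_P3295200 and A_23_P27400), and HAS2, with 1 probe (A_23_P10206), were not well above background on any array. The highest signals among the HAS1 probes were 24.8 and 25.4, on WT replicate 3 and F53S replicate 3. HAS2 signals ranged from 4.32 to 8.33 over the 9 arrays. The arrays therefore give no level for these 2 synthases, which is not evidence that they were absent.

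HAS3 was well above background on all 9 arrays at both of its probes. The first (A_23_P393034, at chr16:69151369-69151428 of hg19) gave -2.34, -2.67 and -3.05 in WT, -2.40, -2.96 and -2.86 in F53S and -2.64, -2.36 and -2.40 in K57N replicates 1 to 3, and the lines overlapped. K57N minus WT was 0.22 (SE 0.23, 95% interval -0.31 to 0.75, limma adjusted p = 0.861), with -0.30 on slide 1 and 0.48 on slide 2. The second (A_33_P3402454, named NM_138612, at chr16:69152306-69152365) gave -2.53, -3.41 and -3.30 in WT, -3.08, -3.26 and -3.30 in F53S and -3.85, -3.56 and -3.17 in K57N replicates 1 to 3. Here K57N replicate 1 was the lowest array, and the lines overlapped. K57N minus WT was -0.45 (SE 0.27, 95% interval -1.07 to 0.17, limma adjusted p = 0.605), with -1.32 on slide 1 and -0.01 on slide 2. The 2 HAS3 probes therefore had differences of opposite sign, and neither passed the test. F53S minus WT was -0.05 for the first and -0.13 for the second.

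The hyaluronidase genes HYAL1, HYAL2 and HYAL3 lie together on chromosome 3, and their probes fall between 50330389 and 50355325 of hg19 on the minus strand. HYAL2, a hyaluronidase held at the cell surface by a lipid anchor, was read by 1 probe (A_33_P3365357) and gave 4.71, 3.80 and 3.76 in WT, 4.94, 3.80 and 3.84 in F53S and 4.37, 3.68 and 3.75 in K57N replicates 1 to 3. The slide 1 array was the highest of each line, and the lines overlapped. K57N minus WT was -0.16 (SE 0.39, 95% interval -1.05 to 0.73, limma adjusted p = 0.978), and F53S minus WT was 0.10. With slide as a term the SE fell to 0.11, and HYAL2 was still not called.

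HYAL3 was read by 2 neighboring probes. K57N minus WT was -0.23 (SE 0.29) at A_23_P361405 and -0.15 (SE 0.33) at A_33_P3273624, with limma adjusted p of 0.919 and 0.975. On slide 1 these differences were -0.78 and -0.59, and on slide 2 they were 0.05 and 0.08, so the sign was negative on slide 1 alone. HYAL1 (probe A_23_P69329), the lysosomal hyaluronidase of most tissues, was well above background on WT replicate 3 alone, at a signal of 30.0. Its other 8 arrays lay between 4.90 and 22.8, and it was not tested.

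HMMR, the second receptor of the group, was well above background on all 9 arrays. Its probe (A_23_P70007, at chr5:162918837-162918896 of hg19) gave 1.74, 3.14 and 3.18 in WT, 2.06, 3.04 and 3.18 in F53S and 2.02, 3.11 and 2.88 in K57N replicates 1 to 3. The 3 slide 1 arrays were the lowest in every line, and within a slide the lines lay close together. K57N minus WT was -0.01 (SE 0.49, 95% interval -1.12 to 1.1, limma adjusted p = 0.998), which leaves a 2-fold difference inside the interval. With slide as a term the difference was the same and its SE was 0.12. F53S minus WT was 0.07 and K57N minus F53S was -0.09.

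HMMR was 1.15 higher on slide 2 than on slide 1, averaged over the lines, while the median over all tested probes was -0.21 and the central 95% of probes lay between -1.47 and 1.20. Among 18 genes of the G2 and M phases the same shift had a median of 0.38 and ran from -0.79 for UBE2C, a ubiquitin-conjugating enzyme of mitotic exit, to 2.08 for CENPE, a kinetochore motor. All 18 were tested and none was called in any of the 3 comparisons, where at most 1.52% of all tested genes were called in 1 direction. Their median log2 difference was -0.12 in K57N against WT, -0.03 in F53S against WT and -0.06 in K57N against F53S cells. The medians over all tested genes were -0.06, 0.01 and -0.07. The slide also separates experiments, so a slide effect and a difference between experiments cannot be told apart.

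For the 6 tested probes of HMMR, HAS3, HYAL2 and HYAL3, the adjusted p-values of the limma fit ranged from 0.605 to 0.998 in K57N against WT cells and from 0.88 to 0.981 in K57N against F53S cells. These 6 probes differed by less than 0.5 on the log2 scale in F53S against WT and in K57N against WT cells. How many of all tested probes did so was not counted, so nothing is read from this count.

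The enzymes that supply the synthases were read from a list of 8 genes, and all 8 were tested. GFPT2, which catalyzes the first step towards UDP-N-acetylglucosamine, passed the test as higher in K57N against WT cells, and the other 7 were not called, where 1.52% of all tested genes were called higher and 0.742% lower. GFPT2 gave 1.07, 1.09 and 1.17 in WT, 1.30, 1.33 and 1.30 in F53S and 2.51, 2.26 and 2.38 in K57N replicates 1 to 3, and the K57N arrays did not overlap the others. In 10.7% of all tested probes the K57N arrays lay above the WT arrays, and in 8.55% above the F53S arrays. GFPT2 was 2.42-fold above WT cells (log2 difference 1.27, SE 0.14, limma adjusted p = 0.00293) and 2.10-fold above F53S cells (log2 difference 1.07, SE 0.14, limma adjusted p = 0.0111). The call against F53S cells was lost in 7 of 21 alternatives, among them leaving out F53S replicate 2 or 3 or K57N replicate 2 or 3, and that against WT cells in none of the 21. The median of the 8 genes was 0.28 in K57N against WT cells. UAP1, which makes UDP-N-acetylglucosamine itself, differed by 0.69 (limma adjusted p = 0.508), and UGDH, which makes UDP-glucuronic acid, by 0.05. With a slide term the limma adjusted p of UAP1 was 0.0322, and it was not called because the difference was below 2-fold. In K57N against F53S cells GFPT2 was again the 1 gene of the 8 called, where 0.96% of all tested genes were called higher and 0.249% lower.

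Of 19 genes for proteins that bind hyaluronan or its binding partners, many of them matrix proteins, 8 were tested. PTX3, a pentraxin that takes part in cross-linking hyaluronan, was called higher in K57N cells against both other lines and the other 7 were not called, where 1.52% of all tested genes were called higher and 0.742% lower against WT cells, and 0.96% and 0.249% against F53S cells. PTX3 gave -3.18, -2.84 and -3.06 in WT, -3.20, -2.83 and -2.90 in F53S and -1.72, -1.56 and -1.59 in K57N replicates 1 to 3. Again all K57N arrays lay above the 6 others, where 10.7% of all tested probes lay above the WT arrays and 8.55% above the F53S arrays. PTX3 was 2.65-fold above WT cells (log2 difference 1.40, SE 0.17, limma adjusted p = 0.00454) and 2.56-fold above F53S cells (log2 difference 1.35, SE 0.17, limma adjusted p = 0.0092). With normexp background correction the difference against WT cells was 0.82 and the call was lost. The call against F53S cells was lost in 6 of 21 alternatives, among them leaving out F53S replicate 3 or K57N replicate 2 or 3. VCAN, which encodes the hyaluronan-binding proteoglycan versican, differed by -0.07 and was not called.

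Among other routes of hyaluronan breakdown, 5 of 7 genes were tested and none was called. For this list and those of receptors and CD44 partners, 1.52% of all tested genes were called higher and 0.742% lower in K57N against WT cells, so a count of 0 is close to the background for lists of this size. Their median was 0.06 in K57N against WT cells, with HEXA, a subunit of the lysosomal hexosaminidase, at -0.62 (limma adjusted p = 0.302). With a slide term the limma adjusted p of HEXA was 0.0126, and it was not called because the difference was below 2-fold. Of 7 other hyaluronan receptors 3 were tested and none was called. STAB1, a scavenger receptor that takes up hyaluronan, was well above background on all 3 WT arrays, 2 F53S arrays and no K57N array, so it entered the test through the line where it was high. Its mean was -3.55 in WT cells, and the K57N mean of -4.75 came from signals at background. The fit with a slide term called it lower in K57N cells, from those same signals, and with normexp background correction the difference was -0.51, so nothing is read from STAB1. Of 16 partners of CD44, with its cytoskeletal linkers, sheddases and splicing factors, 14 were tested and none was called. Their median was 0.04, and ADAM10, a protease that sheds CD44, was at 0.69 (limma adjusted p = 0.397). With a slide term the limma adjusted p of ADAM10 was 0.00329, and it was not called because the difference was below 2-fold. In F53S against WT cells no gene of these 5 lists was called, where 0% of all tested probes were, so nothing is read from this count.

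The genes whose signals moved most like the first CD44 probe over the 9 arrays were LINC-PINT, LAMA4, GFPT2, FOXQ1 and BATF3, among 19269 genes. The measure was the root mean square difference after the mean over arrays was removed from each probe, and it ran from 0.10 to 0.13 on the log2 scale. LINC-PINT is a long non-coding RNA, LAMA4 a laminin chain, and FOXQ1 and BATF3 are transcription factors. For HMMR they were SREK1IP1, DLGAP5, BRCC3, SRSF1 and TERF1, at 0.09 to 0.10. DLGAP5 is a spindle protein, SRSF1 a splicing factor and TERF1 a telomere protein. The HMMR pattern was mostly a step between slides, so likeness to it is a description of that step.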

How the data were processed

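RNA from 9 samples was hybridized to Agilent SurePrint G3 Human GE 8x60K v2 arrays. The authors deposited Agilent Feature Extraction 10.10.1.1 files, per the labels, whose processed signal is a background-subtracted intensity with no scaling between arrays, and log2 values, which matched the log2 of this signal within 0.02 after 1 constant per array was taken off. Each array held 62975 spots, of which 4259 were controls and left out, and 278 to 501 uneven or outlying spots per array were dropped before repeated spots were averaged. Values were log2 of the signal minus the 75th percentile of the array. Probes well above background on at least 0.5 of their spots on all 3 arrays of a line were tested with R 4.3.3 and limma 3.58.1 (with version 1.17.8 of data.table), with 1 mean per line and a shared spread, and p was adjusted by Benjamini-Hochberg over 25400 probes. For list genes the probe of highest mean signal was used. Python 3.11.15, pandas 2.3.3 and matplotlib 3.10.9 were used for the rest. The number of arrays limits the precision. The median SE of K57N minus WT was 0.288, and 0.136 with slide as a term.

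The 9 genes, the lists and the tests were chosen with earlier results of these data known. Every probe of the 9 genes was named, and from each list the called genes, at most the 2 largest rises and falls per comparison, plus the 5 genes most like CD44 and HMMR. Other list genes in the text were named for their role after their values were seen. After the mean of each line was removed, arrays of the same replicate number correlated across probes with r from 0.341 to 0.871, so the numbers pair the arrays, which follows in part from the slides. Gene names came from the annotation in the slide 2 files, which named the 15 probes as those of slide 1 did, and probe positions are on hg19. With no hg19 annotation used here, exon and UTR positions were not determined. Alternatives were normexp with an offset of 50, quantile normalization, other filters, averaging the probes of a gene, fits of 2 lines, the slide, the replicate block, the deposited table, the methods' t-test and leaving out each array. The arrays of slide 1 alone were added after seeing the data. The procedure was tested on simulated data.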

Additional observations from a re-analysis of the deposited data

Results flagged for a closer look

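The CEMIP junction probe gave a signal well above background in data that entered no test. On F53S replicate 3 it was at -3.01 on the log2 scale, and on WT replicate 3 it was at -3.74, whereas it was not well above background on the other 7 arrays. Both arrays were replicate 3 on slide 2, and K57N replicate 3 on the same slide was not well above background.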

How the results depend on the processing

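In K57N against WT cells 2 probes were called. The count was 1 with normexp (CD44 kept), with no filter on dim probes (CEMIP kept), with the filter on all 9 arrays (CD44 kept, since that filter removes the CEMIP probe) and with the mean of a gene's probes (CEMIP kept), and 0 with the methods' t-test after adjustment. In K57N against F53S cells the count of 2 became 1 under the same 4 settings and in the fit of 2 groups (CEMIP kept), 0 with the adjusted t-test, and 1 to 2 on leaving out 1 array, against 2 to 2 for WT. Where no cause is given, it was not tested. In F53S against WT cells it was 0 throughout. With the replicate block the counts stayed at 2, 0 and 2, so the pairing changed no call. The CD44 difference of 1.37 between K57N and WT cells was 1.60 on slide 1 alone, an array per line with no test. Over 27 log2 differences of the 9 probes and 564 values under the alternatives, 548 moved by less than the spread between replicates and 16 by more. No called difference changed sign, and 49 values of 18 uncalled ones did, at sizes up to 0.44. Of the 15 probes 9 could be tested, the others being too dim, which limits what can be said of HAS1, HAS2 and HYAL1.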
